A study of Homo sapiens with 12 samples.

Results

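Chromosome 20 held 479 of 17507 binding sites called for SOX17 and 457 of 17795 called for SOX2. These 936 of 35302 peaks were taken as every row that the authors' 2 peak lists place on chromosome 20, and they were set against the 16270 SOX17 and 16320 SOX2 peaks of the other 21 autosomes. Sites were found by chromatin immunoprecipitation and sequencing (ChIP-seq), which recovers DNA fragments crosslinked to a protein. An anti-SOX17 antibody was used on TCam-2, whose cells are seminoma-like, and an anti-SOX2 antibody on 2102EP, whose cells are embryonal carcinoma-like, both human testicular germ cell tumour lines. Each antibody was used on 3 biological replicates, with 3 libraries of 2% input beside them in each line, 12 libraries in 4 groups in all. The authors deposited 1 merged list per factor, with a score per peak and no value per library, so sequencing depth is unknown and no value below has a replicate error. Each line is 1 line grown in culture, and factor and line changed together.

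SOX2 and SOX17 are related transcription factors that bind a short DNA site through an HMG box. Each can pair with OCT4, a POU factor, on a composite of a SOX site and an OCT site: SOX2 on the canonical composite, with 1 base between the sites, and SOX17 on the compressed composite, with 0 bases between them. SOX17 takes part in the making of human primordial germ cells and marks seminoma, and SOX2 in pluripotent cells marks embryonal carcinoma. Chromosome 20 carries several genes of these states, among them TFAP2C, a factor of germ cell specification, SALL4, a zinc finger factor of pluripotent and germ cells, and DNMT3B, a de novo DNA methyltransferase. Gains of its long arm are recurrent in cultured human pluripotent cells. The lists hold no read counts of the input, and the copy number of the chromosome in either line was not measured here.

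The sequences of 7 peaks are given because the results on genes and composite sites turn on them. All are plus strand of hg38, 5′ to 3′, with capitals at a SOX site (CATTGT or CTTTGT on either strand) or at a composite of that site with an OCT site (ATGCAAAT or ATGCTAAT with at most 1 mismatch). The first 3 show composites. The CDH4 peak of the SOX2 list, at chr20:61436794-61436930, was the only region of the chromosome with a canonical composite in both lists. The MIR499A peak of the SOX2 list, at chr20:34984124-34984258, had the highest score among SOX2 peaks with the canonical composite. The EIF2S2 peak at chr20:34156512-34156622 had the highest score among SOX17 peaks with the compressed composite.
CDH4: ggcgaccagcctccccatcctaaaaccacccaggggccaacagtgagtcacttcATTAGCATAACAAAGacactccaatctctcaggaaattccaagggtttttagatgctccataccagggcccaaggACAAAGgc
MIR499A: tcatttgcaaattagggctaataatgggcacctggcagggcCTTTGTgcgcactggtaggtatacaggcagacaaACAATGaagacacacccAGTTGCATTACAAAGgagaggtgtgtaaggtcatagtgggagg
EIF2S2: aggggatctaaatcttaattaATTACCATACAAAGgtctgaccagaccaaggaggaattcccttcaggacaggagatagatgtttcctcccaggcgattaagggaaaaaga

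The other 4 show a promoter with the compressed composite and the leading peaks of 3 genes of germ cell and pluripotent states. The NKX2-2 peak of the SOX17 list lay at chr20:21514377-21514481 and the highest TFAP2C peak of that list at chr20:56703425-56703525. The highest SALL4 peak of the SOX2 list lay at chr20:51811665-51811793 and the highest DNMT3B peak of that list at chr20:32780911-32781025.
NKX2-2: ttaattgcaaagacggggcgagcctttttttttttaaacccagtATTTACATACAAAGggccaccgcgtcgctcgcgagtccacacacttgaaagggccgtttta
TFAP2C: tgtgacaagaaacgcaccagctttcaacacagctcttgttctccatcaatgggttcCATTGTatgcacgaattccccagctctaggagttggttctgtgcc
SALL4: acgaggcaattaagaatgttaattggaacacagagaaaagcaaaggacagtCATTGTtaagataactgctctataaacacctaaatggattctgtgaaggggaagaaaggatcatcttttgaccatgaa
DNMT3B: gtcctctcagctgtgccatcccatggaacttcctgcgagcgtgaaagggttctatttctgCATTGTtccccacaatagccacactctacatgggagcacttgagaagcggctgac

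Both factors had more peaks per length on chromosome 20 than on the other autosomes, and the chromosome also had more genes per length. SOX17 had 7.43 peaks per Mb there, with an exact Poisson interval of 6.78 to 8.13, against 5.79 per Mb on the other autosomes, the highest density of the 22 autosomes. SOX2 had 7.09 peaks per Mb, against 5.81 per Mb on the other autosomes, and ranked 3 of 22. Protein-coding genes stood at 8.47 per Mb on chromosome 20, against 6.61 per Mb on the other autosomes. Counted per protein-coding gene, SOX17 had 0.877 peaks on chromosome 20 and 0.876 on the other autosomes, and SOX2 had 0.837 and 0.879. The chromosome then ranked 13 of 22 for SOX17 and 14 of 22 for SOX2. The chromosome was chosen by its peak density and by the scores of its peaks in these same lists, so they are described here with no test.

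SOX17 peaks on chromosome 20 carried the highest scores of any autosome. Scores are the authors' own, on a scale that is not stated, and a percentile below is the rank of a peak by score within its own whole list. The median SOX17 score was 36.33 on chromosome 20, against 26.67 on the other autosomes, or a median percentile of 67.0 against 49.96. Chromosome 12 came next, with a median percentile of 64.6. The shift ran through the whole range of scores: chromosome 20 stood 1.27 times higher than the other autosomes at the 10th percentile of scores, 1.36 times at the median and 1.27 times at the 90th. Only 7 of its SOX17 peaks, 1.46%, were in the lowest decile of the list, against 9.35% of peaks on the other autosomes. In the highest decile were 78 peaks, or 16.3% with a 95% Wilson interval of 13.2% to 19.9%, against a background of 10.1% on the other autosomes. The top score of 252.33 was below the 667.67 reached on the other autosomes.

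SOX2 peaks were shifted less at the median. Their median score was 26.97 on chromosome 20, against 24.03 on the other autosomes, a median percentile of 56.0 against 49.9. The chromosome ranked second after chromosome 12, where the median percentile was 63.6. In the highest decile of the list were 59 peaks, 12.9%, against a background of 9.96% on the other autosomes. Their scores stood 1.13 times higher on chromosome 20 than on the other autosomes at the 10th percentile of scores, 1.12 times at the median and 1.18 times at the 90th. With only the peaks above the median score of each list, the shift in median percentile was 8.64 for SOX17 and 0.275 for SOX2. Over those peaks the density ratio of chromosome 20 over the other autosomes was 1.69 for SOX17 and 1.39 for SOX2. Median peak width was the same on chromosome 20 and on the other autosomes, 123 bp for SOX17 and 127 bp for SOX2. Median GC content of the peaks was 46.3% on chromosome 20 and 44.9% on the other autosomes for SOX17, and 44.5% and 43.0% for SOX2. Its part in the scores was not tested.

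**Figure D1:**
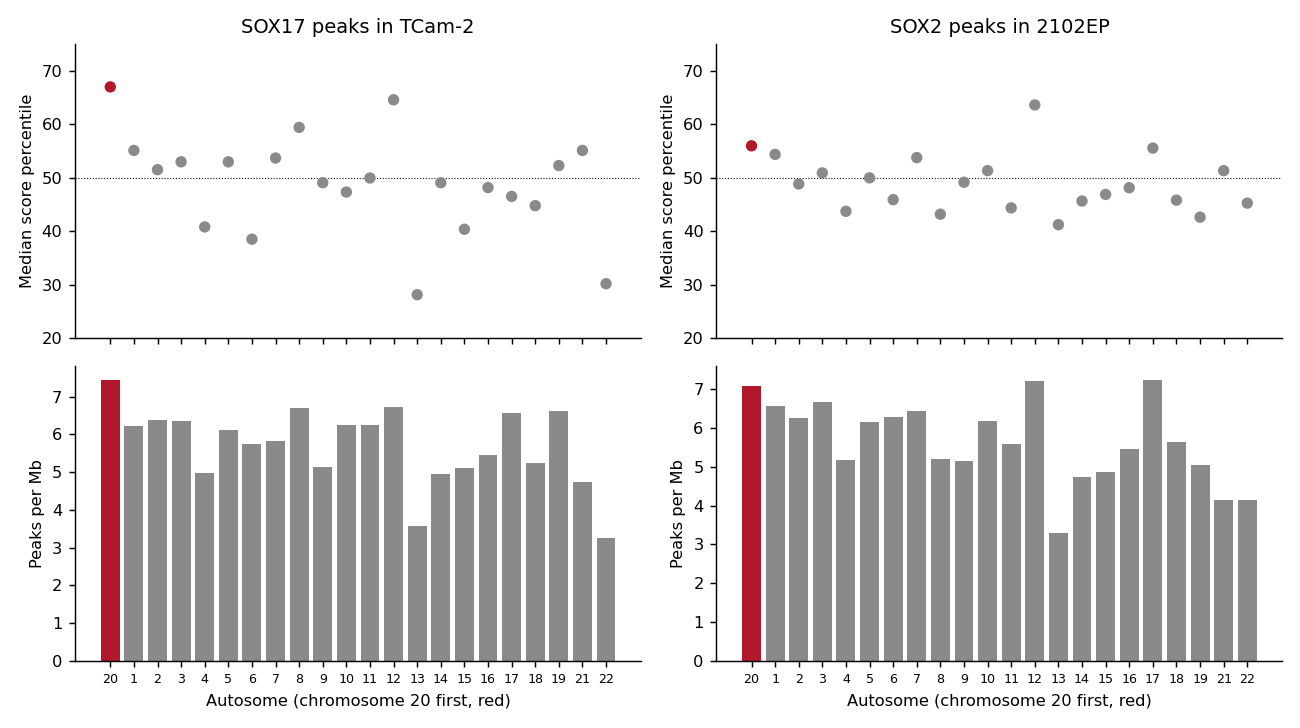
Median score percentile within the list (upper panels) and peaks per Mb (lower panels) on each autosome, for SOX17 in TCam-2 and SOX2 in 2102EP, with chromosome 20 in red and the dotted line at the 50th percentile. Chromosome 20 is highest for SOX17 in both measures, and for SOX2 it is second in median percentile after chromosome 12.

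**Figure D2:**
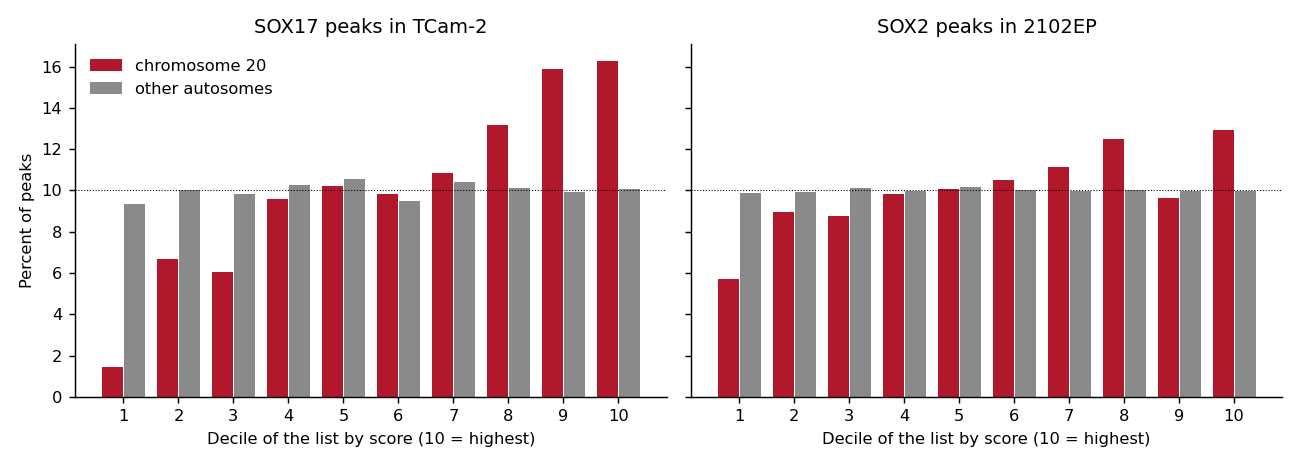
Percent of the peaks of chromosome 20 (red) and of the other autosomes (grey) in each decile of the whole list by score, with the dotted line at an even share. The lowest decile holds 1.46% of SOX17 peaks of chromosome 20, and the highest decile 16.3%.

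The higher scores were found in each class of SOX17 peak that was compared except promoters. Score medians were not taken for exons, transcript ends and the smaller repeat classes. Intergenic SOX17 peaks had a median score of 39.33 on chromosome 20, against 27.165 on the other autosomes, and intronic ones 34.33 against 26.67. Long terminal repeats (LTRs) are the ends of endogenous retroviruses, but the LTR class of repeats used here also counts internal parts. SOX17 peaks of that class had 36.67 against 27.67. The 16 SOX17 promoter peaks, however, had a median of 24.5 on chromosome 20, against 25.0 for the 544 on the other autosomes. The 17 SOX2 promoter peaks went the other way, with 35.1 on chromosome 20 against 21.035 on the other autosomes. Shared SOX17 peaks, those overlapping a SOX2 peak by at least 1 bp, had a median of 48.665 on chromosome 20 against 33.67, and unshared ones 31.0 against 25.33. For SOX2 the shared peaks had 41.05 against 32.77, and the unshared ones 24.4 against 22.13.

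Along the chromosome, 12 of the 13 bins of 5 Mb had a median SOX17 percentile above 50, or 92.3% of bins, against 245 of 536 bins, 45.7%, on the other autosomes. The bin from 55 to 60 Mb, which holds TFAP2C and BMP7, stood highest, with 49 peaks, a median percentile of 78.1 and 13 peaks in the highest decile. It was followed by the bins from 30 to 35 Mb, with 37 peaks and a median of 75.5, and from 50 to 55 Mb, with 38 peaks and a median of 75.4. The bin from 40 to 45 Mb was the exception. Its 33 SOX17 peaks had a median percentile of 46.5, none of them was in the highest decile, and its leading peak, nearest to MIR6871, had a score of 65.67.

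SOX2 bins followed a similar course, at a lower level in most bins. The SOX2 median was above that of SOX17 from 10 to 15 Mb, at 62.6 against 57.4, and from 25 to 30 Mb, at 71.9 against 67.4. From 40 to 45 Mb it was 47.6 against 46.5. Of the 13 SOX2 bins 9 were above 50, or 69.2%, against 242 of 536, 45.1%, on the other autosomes. The lowest were the first pair from the end of the short arm, with medians of 35.4 over 39 peaks and 38.01 over 33 peaks. The highest was the bin from 25 to 30 Mb, around the centromere, with 71.9, but over 11 peaks only. The bin from 40 to 45 Mb, low for SOX17, had a SOX2 median of 47.6 and yet held the second strongest SOX2 peak of the chromosome. Over the 13 bins, the median percentiles of SOX17 and SOX2 had a Spearman correlation of 0.659 and the numbers of peaks 0.658. The numbers of peaks and of protein-coding transcription start sites (TSSs) had one of 0.588 for SOX17 and 0.562 for SOX2. Bins of both lists count the same shared regions and the same genes, and these values are descriptions.

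The long arm stood above the short arm for both factors. From 30 Mb onward SOX17 had 8.48 peaks per Mb (7.53 to 9.51), against 7.12 per Mb (6.11 to 8.25) on the short arm up to 25 Mb. Its median percentiles were 69.9 (65.1 to 74.3) and 60.7 (54.4 to 67.4). Of the long-arm SOX17 peaks 54 were in the highest decile, 18.5%, against 22, 12.4%, on the short arm. SOX2 had 7.69 peaks per Mb on the long arm and 7.24 on the short arm, with median percentiles of 60.4 and 49.7. Its highest decile held 42 long-arm peaks, 15.8%, and 15 short-arm peaks, 8.29%. Protein-coding TSSs per bin numbered 85, 22, 15, 24 and 31 along the short arm. Along the long arm they numbered 68, 60, 34, 70, 22, 41 and 65. Peaks per gene were not counted by arm. On the short arm, then, SOX2 scores were near those of the other autosomes, whose median percentile was 49.9, while SOX17 scores were above them on both arms.

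**Figure D3:**
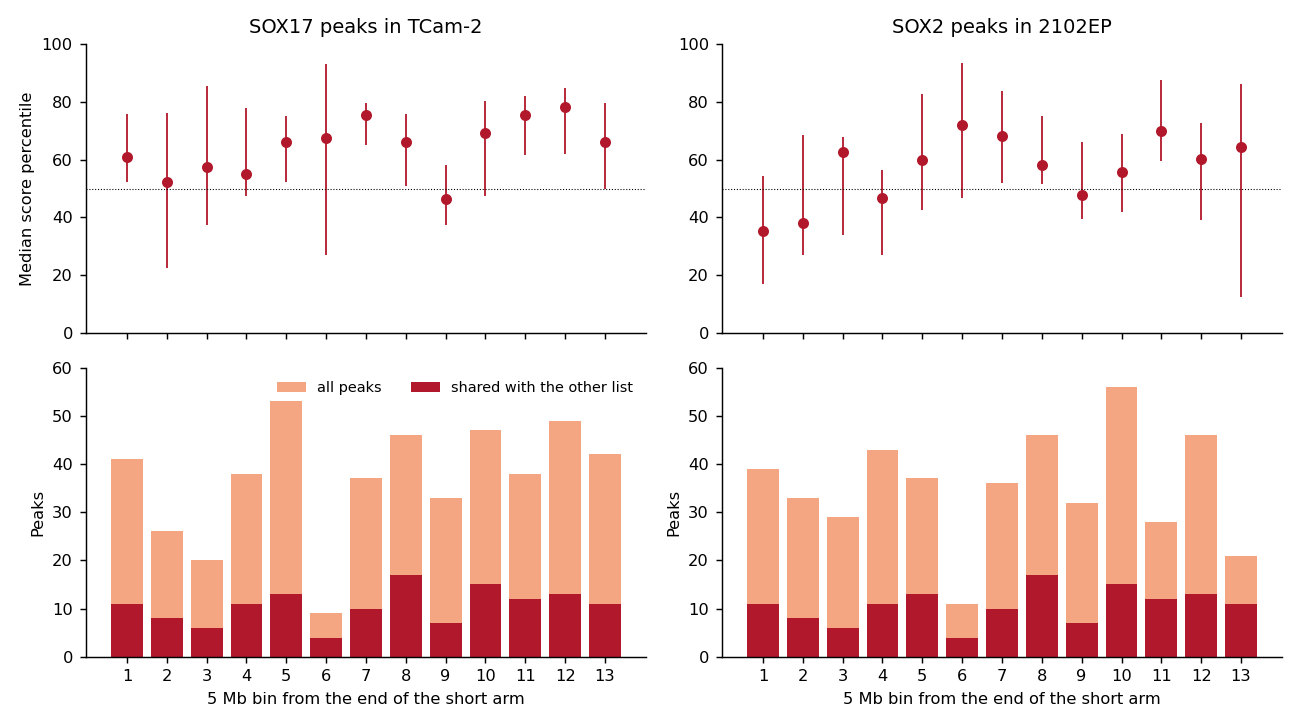
Median score percentile with its 95% interval (upper panels) and number of peaks (lower panels, dark part shared with the other list) in the 13 bins of 5 Mb along chromosome 20, numbered from the end of the short arm. The bin at 40 to 45 Mb, number 9, has the lowest SOX17 median, and bins 1 and 2 have the lowest SOX2 medians.

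Of the 10 strongest SOX17 peaks of the chromosome, counting 1 per nearest gene, 4 overlapped a SOX2 peak; in the highest decile of the list 44.9% of its SOX17 peaks did, against 37.7% on the other autosomes. The first was in intron 4 of the noncoding gene LINC01716, with a score of 252.33 (percentile 99.8), 36.8 kb upstream of the TSS of TFAP2C. MIR548AG2, at 242.67, and MIR646, at 233.33, followed, named for the nearest microRNA genes 155 kb and 30.1 kb away. SAMHD1, which encodes a dNTP hydrolase that restricts retroviruses, came next with a peak of 191.33 in its intron 1. EIF2S2, a subunit gene of a translation initiation factor, had one of 188.33 lying 44.2 kb upstream in an internal part of a HERV9N provirus, whose sequence is given above. TGIF2, which encodes a homeodomain repressor in TGF-beta signalling, had one of 179.67 in an intron. LINC00494 at 162.0, SUMO1P1 at 153.0 and TFAP2C and C20orf85 at 145.33 each completed the leading 10. The shared ones were those of SAMHD1, TGIF2, LINC00494 and SUMO1P1.

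Of the 10 strongest SOX2 peaks, counted in the same way, 8 overlapped a SOX17 peak; in the highest decile of the list 54.2% of its SOX2 peaks did, against 48.4% on the other autosomes. The first, of 434.93 (percentile 99.9), was named for ZFP64, a zinc finger gene 56.9 kb away, and lay 246 kb upstream of the TSS of SALL4. SOX17 had a peak at percentile 94.0 at the same place. The second, of 376.23, was in intron 12 of PTPRT, a receptor phosphatase gene, with no SOX17 peak overlapping it, although 2 SOX17 peaks lay within the gene body. The third, of 313.03, lay in intron 1 of BMP7, which encodes a bone morphogenetic protein (BMP), and the files name it for the antisense gene BMP7-AS1. There SOX17 had 39.0 (percentile 70.3). ID1, an inhibitor of helix-loop-helix factors and a classical BMP target, had a SOX2 peak of 292.93, 9.49 kb upstream of its TSS. HM13-AS1 at 279.47, ACOT8 at 265.77, MCM8 at 258.7, LOC100289473 at 252.6, KIZ-AS1 at 251.4 and LOC100131496 at 240.23 followed. MCM8, a helicase gene of meiotic recombination, had its SOX2 peak in intron 10 and no SOX17 peak overlapping it. A SOX17 peak at percentile 73.6 was named for MCM8 too, and both lay within 1.82 kb.

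The central 75 bases, a read length, of 69 leading and named peaks were each found once on the autosomes, X and Y of hg38. None of these was thus an exact copy of another place on those chromosomes, and unplaced or alternate sequences were not searched. No source used here says how the authors treated reads with several map positions.

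Of 11 pluripotency and germ cell genes of the chromosome, TFAP2C, ID1 and TGIF2 had peaks of both factors above percentile 90. TFAP2C was the nearest gene of 5 SOX17 and 6 SOX2 peaks over 288 kb, of which 1 region was shared. Its SOX17 peaks had percentiles from 58.2 to 98.4 and its SOX2 peaks from 26.2 to 96.5. Within 100 kb of its TSS lay 6 SOX17 and 5 SOX2 peaks, counting those named for LINC01716. The strongest SOX17 peaks of the locus, at 36.8 kb upstream and 74.2 kb downstream of the TSS, had no SOX2 peak on them, and the strongest SOX2 peaks, 33.2 kb upstream and 107 kb downstream, no SOX17 peak.

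SALL4 had 1 SOX17 peak 10.5 kb upstream of its TSS, with a score of 53.0 (percentile 82.2). SOX2 had one 9.21 kb upstream, with 153.13 (percentile 96.9), and one in intron 1 with 88.1 (percentile 91.0). None of these overlapped. DNMT3B had 2 SOX2 peaks, one in intron 2, of score 163.0 (percentile 97.4), in a MER3 DNA transposon, and one 6.05 kb upstream, of 72.67 (percentile 87.7). No SOX17 peak lay within 100 kb of the DNMT3B TSS, and the nearest, in NOL4L, was 179 kb away. A peak absent from a merged list can still have been called in single libraries.

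Of the 11 genes, 7, or 63.6%, were the nearest gene of a SOX17 peak and 6, or 54.5%, of a SOX2 peak. The background is 35.8% of the chromosome's 537 protein-coding genes for SOX17 and 33.7% for SOX2. Besides those above, MYBL2, a cell cycle factor, had 1 SOX17 peak (percentile 87.8) and no SOX2 peak. SYCP2, of the synaptonemal complex, had 2 SOX17 peaks (highest percentile 53.0) and no SOX2 peak. CTCFL, the germline paralog of CTCF, had 2 SOX17 peaks and 1 SOX2 peak, the highest at percentiles 53.0 and 33.6. SPO11, the meiotic endonuclease, L3MBTL1 and NNAT were nearest gene of no peak in either list.

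Among 14 genes of BMP, Nodal, WNT and Notch signalling, 9, or 64.3%, were near a SOX17 peak and 8, or 57.1%, near a SOX2 peak. Against this stands the background of 35.8% and 33.7%, and the difference was not tested. TGIF2 and ID1 had a region strong in both lists, at percentiles of 99.3 for SOX17 and 98.2 for SOX2 in TGIF2, and of 95.2 and 99.5 at ID1. PLCB4, a phospholipase C gene, had a SOX17 peak at percentile 97.9, on which lay one of its 6 SOX2 peaks at 94.2. BMP7 and BMP7-AS1 together had 4 SOX17 and 8 SOX2 peaks, of which 2 regions were shared. The shared region in intron 1 lay 34.4 kb downstream of the BMP7 TSS. BMP2 had 1 SOX17 peak, at percentile 8.22, and 3 SOX2 peaks of which the highest was at 68.5. JAG1, a Notch ligand gene, had a SOX2 peak 195 bp downstream of its TSS (percentile 67.5) and none for SOX17.

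Of 29 SOX and lineage factor genes, 16, or 55.2%, were near a SOX17 peak and 15, or 51.7%, near a SOX2 peak. The background over protein-coding genes of the chromosome is 35.8% and 33.7%, and the difference was not tested. FOXA2, a factor of endoderm, was itself nearest gene of none, but 8 SOX17 and 6 SOX2 peaks lay within 100 kb of its TSS, named for the flanking noncoding genes LINC00261, LINC01384, LINC01747 and LOC284788. At LINC00261 a shared region 6.17 kb downstream of the FOXA2 TSS had percentiles of 75.5 for SOX17 and 89.5 for SOX2. A second, near LINC01384 and 26.4 kb upstream, had 71.8 and 92.5. Stretches of 100 kb at this place held up to 6 SOX17 and 5 SOX2 peaks, the most found in any such stretch of the chromosome, reached also near PPP1R16B and ZMYND8 for SOX17 and near SRC and TFAP2C for SOX2. SOX12 and SOX18 were nearest gene of no peak. The nearest to SOX12 were 46.7 kb (SOX17) and 25.1 kb (SOX2) from its TSS, and those to SOX18 6.41 kb (SOX17) and 49.8 kb (SOX2). OVOL2, an epithelial zinc finger factor, had 3 SOX17 and 2 SOX2 peaks with 2 shared regions, the highest at percentiles of 86.2 and 33.3.

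Of 27 growth and cell cycle genes, many of them on the long arm, 9, or 33.3%, were near a SOX17 peak and 8, or 29.6%, near a SOX2 peak. These shares are close to the background of 35.8% and 33.7%. The gene lists overlap, and TFAP2C, ZNF217 and MYBL2 were counted here and in other lists as well. NCOA3, a nuclear receptor coactivator, reached percentiles of 96.4 for SOX17 and 67.9 for SOX2, and ZNF217, a zinc finger factor, 93.7 and 60.8. BCL2L1, which encodes the survival protein BCL-XL, was the nearest gene of no peak, although 3 SOX17 and 2 SOX2 peaks lay within its gene body. The files name these for the noncoding gene ABALON, except 1 SOX17 peak named for COX4I2. AURKA, E2F1, TPX2 and UBE2C were nearest gene of no peak in either list.

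Of 27 adhesion, matrix and cell surface genes, 11, or 40.7%, were near a SOX17 peak and 14, or 51.9%, near a SOX2 peak. The background is again 35.8% and 33.7%, and the difference was not tested. CDH4, which encodes R-cadherin, had 7 SOX17 and 2 SOX2 peaks over 398 kb. Of 31 genes of the cystatin, defensin and seminal clusters, which are expressed in glands and the male tract, 9 were near a SOX17 and 9 near a SOX2 peak. That is 29.0% for each factor, below the background. The highest of these were CST2 at percentile 95.3 for SOX17 and WFDC8 at 97.5 for SOX2, and the median best percentiles were 64.0 and 47.7. In all, 374 genes were named as nearest: 169 by both lists, 113 by SOX17 alone and 92 by SOX2 alone. Of the 169, 117 had a shared region. These counts were not made on the other autosomes, so they cannot be called particular to chromosome 20. Of protein-coding genes there, 33.4% were near a SOX17 peak and 31.2% near a SOX2 peak, against 35.8% and 33.7% on chromosome 20. The most peaks were named for LINC00494, with 6 SOX17 and 10 SOX2, and for LOC613266, with 5 SOX17 and 9 SOX2.

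The lists had 138 regions in common on chromosome 20. They made up 28.8% of its SOX17 peaks (95% Wilson interval 24.9% to 33.0%), against a background of 25.0% on the other autosomes, the highest share of the 22 autosomes. The odds ratio was 1.21, with a 95% interval of 0.992 to 1.48, and did not pass (adjusted p = 0.0615, two-sided Fisher's exact test, Benjamini-Hochberg over the 2 lists). Of its SOX2 peaks they made up 30.2% (26.2% to 34.6%), against a background of 24.9%, with an odds ratio of 1.30 (1.06 to 1.59), which passed (adjusted p = 0.0237, the same exact test). With centres within 1000 bp counted as shared, it was 31.3% against 26.6% and did not pass (adjusted p = 0.0556, Fisher's exact test). These are the same regions counted over different totals. The chromosome was chosen partly by score. On the other autosomes 12.6% of SOX2 peaks were shared in the lowest decile by score and 48.4% in the highest. The tests of sharing are therefore not independent of that choice. Peaks were treated as independent, which they are not where neighbours or copies of a repeat are alike, so these p-values are approximate.

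Sharing went with score. When each list was split by score into 3 equal classes, an alternative chosen after seeing the data, 39.2% of SOX17 peaks of the highest class were shared on chromosome 20, against 33.9% on the other autosomes. In the middle class 21.6% were shared against 23.995%, and in the lowest 11.7% against 17.0%. For SOX2 the shares were 43.6% against 36.0% in the highest class, 24.2% against 22.8% in the middle and 18.4% against 16.0% in the lowest. Of these, the highest SOX2 class alone had an unadjusted p below 0.05 (p = 0.0479, two-sided Fisher's exact test). The SOX17 peaks of chromosome 20 fell in the highest class in 240 of 479 cases, and the SOX2 peaks in 179 of 457.

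**Figure D4:**
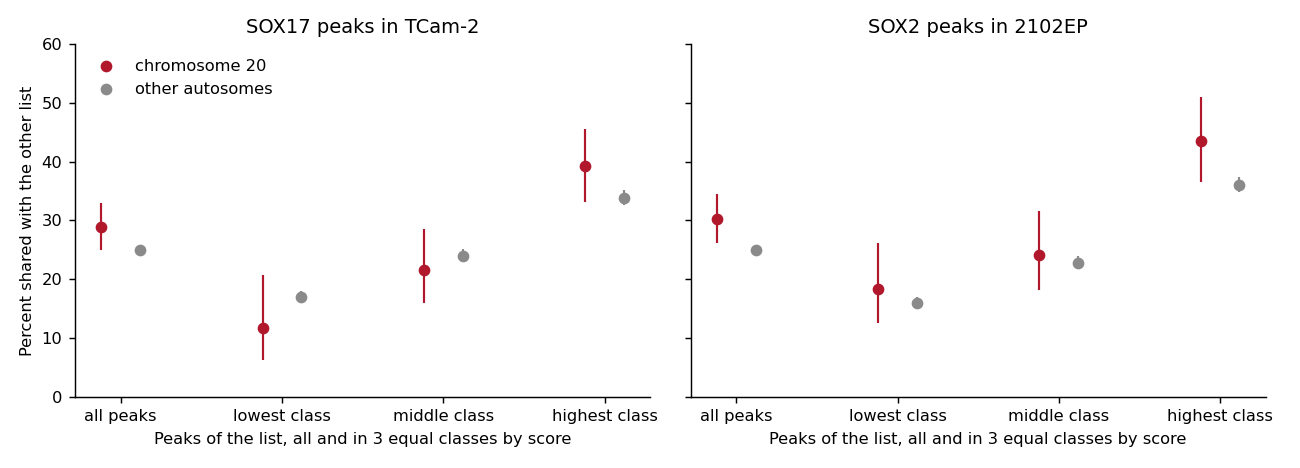
Percent of peaks that overlap a peak of the other list, with 95% Wilson intervals, on chromosome 20 (red) and on the other autosomes (grey), for all peaks and for 3 equal classes of the list by score. The share grows with score in both, and in the lowest class SOX17 has 11.7% on chromosome 20 against 17.0% on the other autosomes.

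The highest shared regions by mean percentile were in SAMHD1, at 99.4 for SOX17 and 98.7 for SOX2, and in TGIF2. The region named for KIZ-AS1, within intron 4 of the centrosome gene KIZ, had 97.3 and 99.1. Those of ID1, LOC100131496, ZFP64 and PLCB4 followed. The region named for MIR4477B, 127 kb from that gene and next to the centromere, had 96.1 and 95.2. The region named for MIR3194, in a MER4B repeat 141 kb from that gene, had 92.3 and 98.8. That named for LINC00494, in an LTR23 repeat 179 kb from it, had 98.9 and 91.8. CBFA2T2, a corepressor gene named here after its values were seen, had a shared region 12.6 kb upstream of its TSS with 97.3 and 89.2. In 13 of the 138 regions both peaks were in the highest decile of their list, against 229 of 4071 on the other autosomes. The chromosome was chosen partly by score, so this is a description. The difference between the percentiles of SOX17 and SOX2 had a median of 1.42 over the 138 regions, with a 95% interval of -2.31 to 7.18, against -1.12 on the other autosomes, and chromosome 20 ranked 6 of 22.

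Fewer SOX17 peaks of chromosome 20 lay in repeats of the LTR class, internal parts included. There were 73, or 15.2% with an interval of 12.3% to 18.7%, against 22.3% on the other autosomes, with an odds ratio of 0.627 (0.487 to 0.807). This passed over the 22 comparisons of location and repeat classes (adjusted p = 0.00382, two-sided Fisher's exact test) and was the lowest share of any autosome, the next being 15.3%. Among peaks above the median score of the list the shares were 16.1% and 23.3%, and the difference no longer passed (adjusted p = 0.0586, Fisher's exact test). For SOX2 the LTR share was 19.7%, against 25.2%, and did not pass (adjusted p = 0.0703, the same exact test). How much of each chromosome is of the LTR class was not measured here.

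By family, ERVL-MaLR elements held 3.76% of SOX17 peaks on chromosome 20 against 6.82%, and 1.97% of SOX2 peaks against 4.69%. ERV1 elements held 5.64% against 8.75% for SOX17 and 10.3% against 14.03% for SOX2. ERVK elements held 9 SOX17 peaks, 1.88% against 2.42%, and 12 SOX2 peaks, 2.63% against 1.93%. No other class passed. SOX17 introns held 41.5% of peaks on chromosome 20 and 44.6% on the other autosomes, SOX2 introns 44.86% and 43.98%, and promoters 3.34% and 3.34% for SOX17 and 3.72% and 2.57% for SOX2. The distance to the nearest TSS had a median of 25442 bp on chromosome 20 against 36426.5 bp for SOX17, and of 24739 bp against 40128.5 bp for SOX2.

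**Figure D5:**
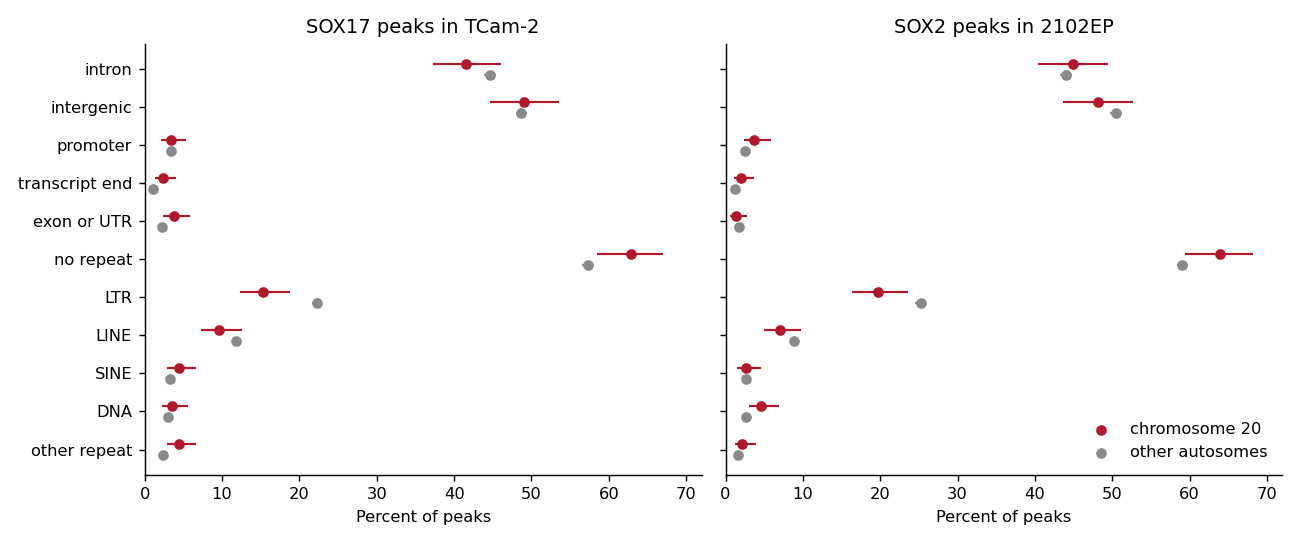
Percent of peaks in each class of location and of repeat, with 95% Wilson intervals, on chromosome 20 (red) and on the other autosomes (grey). The SOX17 LTR class, 15.2% on chromosome 20 against 22.3%, is the one that passed the test.

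The share of peaks with a SOX site did not differ detectably from that of the other autosomes. Within 100 bp of the peak centre, 322 SOX17 peaks had one, 67.2% against 67.2% on the other autosomes, with an odds ratio of 1.00 (0.827 to 1.22). For SOX2 it was 266 peaks, 58.2% against 60.5%, with an odds ratio of 0.911 (0.754 to 1.10). Windows of the same width 2000 bp to either side held one in 24.4% of cases around SOX17 peaks and 24.8% around SOX2 peaks of the chromosome. Shared SOX17 peaks were 31.1% of those with a SOX site and 24.2% of those without, and shared SOX2 peaks 36.5% and 21.5%.

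The compressed composite was rarer in the SOX17 peaks of chromosome 20. It was found in 4 of 479, or 0.835% with an interval of 0.325% to 2.13%, against 452, or 2.78%, on the other autosomes. The odds ratio was 0.295 (0.110 to 0.792), which passed over 6 comparisons (adjusted p = 0.0370, two-sided Fisher's exact test). It rests on 4 peaks and did not pass within 50 bp of the centre (adjusted p = 0.0681) or, with the 2 shares at 0.209% and 0.234%, when no mismatch was allowed (adjusted p = 1.0, both by Fisher's exact test). The canonical composite was found in 9 SOX2 peaks, 1.97% against 1.70% on the other autosomes, and in 1 SOX17 peak, 0.209% against 0.375%. SOX2 had the compressed composite in 0 of 457 peaks of the chromosome, with an upper Wilson bound of 0.834%, against 13 on the other autosomes.

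The 4 compressed peaks were not shared, against a share of 28.8% over all SOX17 peaks of the chromosome. With 4 peaks this says little. That of EIF2S2 (percentile 99.4) lay in the internal part of an ERV1 provirus, HERV9N-int. Another was in the promoter of NKX2-2, a factor of the ventral neural tube and pancreatic islets, 403 bp upstream of the TSS by the authors' distance, at percentile 67.9, with no SOX2 peak within 100 kb. A further one was in intron 2 of CDH4, at percentile 43.98.

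The canonical region in intron 2 of CDH4, in a MER21C LTR, stood at percentiles of 93.9 for SOX17 and 94.7 for SOX2. The peak named for MIR499A, in intron 10 of the myosin gene MYH7B, stood at 98.6 for SOX2 and was not shared. The other 7 canonical SOX2 peaks were named for LOC613266, ATP9A, LOC339593, LINC01721, PRNP, DLGAP4 and BMP7, at percentiles from 25.0 to 79.3, and none was shared. In all, 1 of the 9 canonical SOX2 peaks was shared, 11.1%, against 30.2% of all SOX2 peaks of the chromosome. The difference rests on few peaks and was not tested. As for the genes of germ cell and pluripotent states printed above, each of the TFAP2C, SALL4 and DNMT3B peaks held a SOX site and no composite. The leading SOX17 peaks of SAMHD1 and TGIF2 held neither in these letters, which says nothing on other forms of the site.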

How the data were processed

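SOX17 ChIP-seq of TCam-2, SOX2 ChIP-seq of 2102EP and the 2% inputs gave 12 libraries, whose titles place them in 4 groups of 3. Each immunoprecipitation used 5 µg of antibody on 200 µg of chromatin lysate, per the labels' protocols. Per the design text, 25 M single-end reads of 75 bp were planned for each library, CLC Genomics Workbench 12 mapped them to hg38, and HOMER, which the submitters' processing notes name too, gave the peaks. No source used here states the HOMER version, the calling settings or how input entered the calls.

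The authors deposited 1 annotated list of merged peaks per factor, with a score per peak on a scale that is not stated, so scores were compared only within a list, as percentiles. Positions, distances to the TSS, nearest gene, location class and repeat are the authors', in bp on hg38 per the file headers. Of the chromosome 20 peaks whose gene is in GENCODE 44, 411 of 425 SOX17 and 387 of 405 SOX2 peaks lay within 1000 bp of the stated distance from a TSS of that gene. Of each list, 2 lines reached this work empty. The suffix of the peak names, 3 in all of them, is unexplained. The planned test of ChIP over input needs values per library and was not run.

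The lists were read with pandas 2.3.3 and tested with scipy 1.17.1. Peaks with at least 1 bp in common were shared. Fisher's exact tests, two-sided, compared shares, with Benjamini-Hochberg adjustment per family and a threshold of 0.05 on the adjusted p. Intervals of shares are 95% Wilson and those of odds ratios 95% Woolf intervals; they and the Poisson intervals cover counting over peaks and not the spread between cultures. Motif searches took in either strand up to 100 bp from the centre of a peak. A protein-coding gene is that of GENCODE for densities and that of RefSeq for nearest genes. Named genes were the 10 highest peaks of each list, the 10 highest shared regions, the highest peak of each bin, up to 4 members of each gene list and genes named in the rule itself; other genes were named after their values were seen. The chromosome, the gene lists and the tests were chosen with earlier results of these data known. The overlap and the test were checked on simulated data. Alternatives were other overlap limits, peaks above the median score of each list, peaks outside repeats or away from promoters, leaving out chromosome 12, other bins, arm limits, motif windows and mismatches, and, chosen after seeing the data, classes by score and unshared peaks alone. Some items are not reported here.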

Additional observations from a re-analysis of the deposited data

How the results depend on the processing

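Of 100 alternative values for 40 results, 81 kept the direction and the side of the threshold, or for values with no test stayed within their interval. The SOX2 shared share was 31.3% with centres within 1000 bp and no longer passed (adjusted p = 0.0556), and the SOX17 share passed outside repeats, at 30.6% (adjusted p = 0.0303, Fisher's exact test). Within classes by score, the SOX17 share lay below that of the other autosomes at 11.7% in the lowest and 21.6% in the middle class, and the SOX2 share did not pass there, at 18.4% and 24.2%. Among peaks above the median score the score shift was 8.64 percentile points for SOX17 and 0.275 for SOX2, and the density ratios were 1.69 and 1.39. With bins of 10 Mb, or of 5 Mb moved by 2.5 Mb, 100% of SOX17 bins were above the 50th percentile. The SOX17 LTR share of 16.1% among those peaks did not pass, nor did the compressed composite at 0.835% within 50 bp or at 0.209% without mismatch. The canonical composite of SOX17, at 0.209% without mismatch, came above the other autosomes. Differences that never passed changed sign for SOX17 promoters (3.34% without chromosome 12) and, above the median score, for SOX2 introns (42.5%) and SINEs (1.93%). The cause was not tested in any of these.

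No paired analysis was possible because the merged lists hold no columns for single libraries, so leaving out a replicate was not run either, and depth is unknown.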

Other observations

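Single repeat families held few peaks each. SVA_D, of a family of young retroposons, held 9 SOX17 peaks of chromosome 20, 1.88% of its peaks against 0.953% on the other autosomes, and 6 SOX2 peaks, 1.31% against 0.521%, and 5 of these regions were shared. LTR5_Hs, the LTR of the HERV-K family, held 7 SOX17 peaks, 1.46% against 1.32%, with a median percentile of 84.6, and 8 SOX2 peaks, 1.75% against 1.16%, with a median of 69.7. Of these, 3 regions were shared. MER4B held 3 SOX17 peaks, 0.626% against 0.154%, with a median percentile of 91.1. It held 3 SOX2 peaks, 0.656% against 0.478%, with a median of 98.8. Of these regions 2 were shared, named for HM13-AS1 and MIR3194, and medians over 3 peaks say little. These families were picked after their values were seen, and the differences were not tested.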
